A study of Mus musculus with 8 samples.

Results

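The 10 transcripts described here encode regulators of G protein signaling (RGS) in cultured mouse osteoblasts: Rgs1, Rgs2, Rgs3, Rgs4, Rgs5, Rgs10, Rgs12, Rgs16, Rgs17 and Rgs19. They were chosen by symbol from the 47706 gene entries of the count table, and each of the 10 had 1 entry. All 10 were among the 16736 entries that passed the filter on low counts. The table held 21 RGS genes in all, of which 18 passed that filter, and the other 11 are used here as a point of comparison.

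RNA was sequenced in 8 samples of cultured primary calvarial osteoblasts, the bone-forming cells released by collagenase from the skullcaps of neonatal mice aged 1 to 3 days. All samples were differentiated for 7 days, kept in 0.1% serum for 6 hours and then treated for 24 hours with parathyroid hormone (PTH1–34, 100 μM as written in the methods) in the 4 Con_PTH samples or with vehicle in the 4 Con_Veh samples. The labels call the differentiation adipogenic and do not explain "Con", and the strain and sex of the donors and the number of animals behind each sample were not given in the sources used here. No source says that samples of a group came from separate cultures or animals, so the p-values measure the spread between these samples, which may be technical. Total counts lay between 41618108 and 46757836 in vehicle samples and between 33605610 and 56090654 in PTH samples. The median osteoblast marker stood at 301 to 537 CPM (counts scaled to the TMM-normalized library size) in the 8 samples, and 8 adipocyte markers summed to 34.8 to 55.5 CPM, with Lep below the filter. Of the 8 osteoblast markers, Sp7 (log2 fold change −1.78 ± 0.171, SE) and Runx2 (−0.33 ± 0.0764) were called lower with PTH and none higher, and of 7 adipocyte markers tested Pparg was called lower (−1.50 ± 0.110) and none higher. Tnfsf11, the RANKL gene and a known PTH target, rose from 1.42 ± 0.365 CPM to between 115 and 157 CPM, and Pth1r, the PTH receptor gene, fell from 136 ± 21.1 to 83.6 ± 11.6 CPM (SD, n = 4, edgeR adjusted p = 4.28e-11 and 4.43e-04).

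RGS proteins share a domain that binds an active G protein alpha subunit and speeds the hydrolysis of its GTP, which shortens the signal that a receptor sends through it. Most act on alpha subunits of the Gi or Gq families, and they are grouped into R4, RZ, R7 and R12 subfamilies by sequence and added domains. The PTH receptor couples to Gs, which raises cAMP, and to Gq, which activates phospholipase C.

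With PTH, 3 of the 10 members were called higher (Rgs2, Rgs16 and Rgs10) and 4 were called lower (Rgs3, Rgs12, Rgs19 and Rgs4), while Rgs1, Rgs5 and Rgs17 did not pass the test. Called means an adjusted p under 0.05 in edgeR's quasi-likelihood test, adjusted over all 16736 genes tested, of which 23.3% were called higher and 22.5% lower. The 8 samples separated without overlap for 6 members, against 43.0% of all genes tested. The median log2 fold change of the members was −0.09 and that of all genes tested was −0.001. Because 10 genes are few, these counts describe the members and do not set them apart from other genes. A bulk library cannot tell fewer cells of a type from less RNA in each cell.

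**Figure D1:**
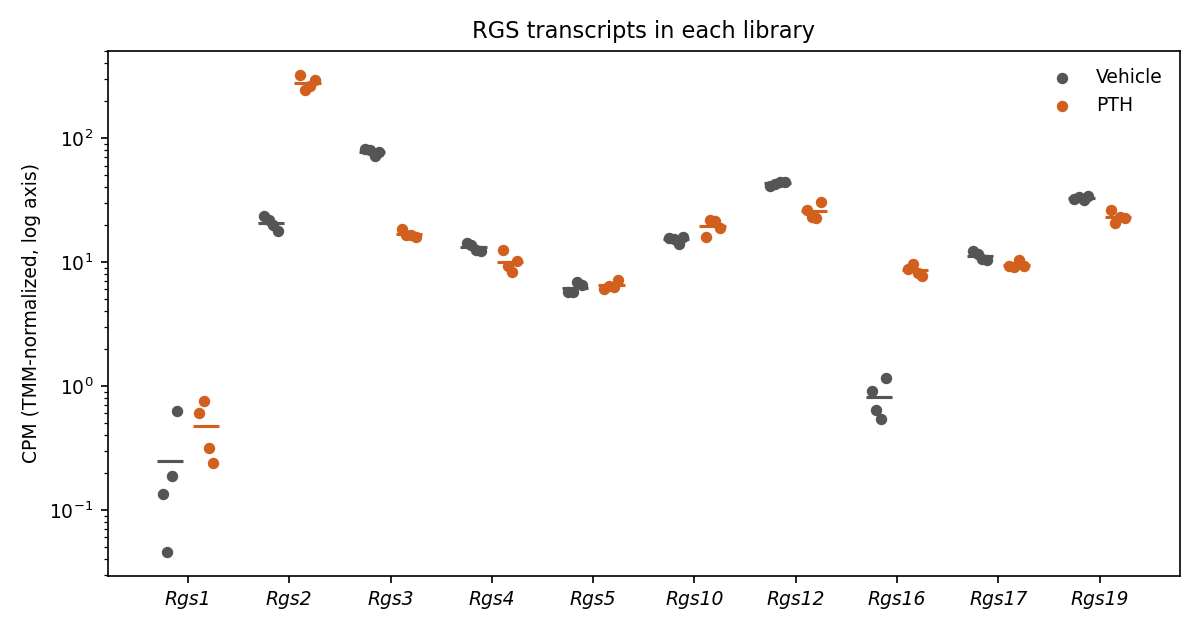
CPM (log axis) of the 10 RGS members in each vehicle (gray) and PTH (orange) library, with the group mean as a short line. Rgs2 and Rgs16 had the largest increases and Rgs3 the largest decrease, and the other members moved by less than 1 on the log2 scale.

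Within the R4 subfamily, whose members are small proteins made of little more than the RGS domain, Rgs2 had the largest change. RGS2 acts mainly on Gq alpha subunits, and its gene is known to be induced by PTH in osteoblasts. Rgs2 stood at 23.4, 21.8, 19.8 and 17.8 CPM in the 4 vehicle samples and at 325, 242, 262 and 293 CPM in the 4 PTH samples, from 882 to 1048 and from 8051 to 16654 counts. All PTH samples lay far above all vehicle samples, with no overlap. The fold change was 13.6, or 3.76 ± 0.116 on the log2 scale (SE, n = 4, 95% interval 3.51 to 4.01, edgeR adjusted p = 1.50e-10), the 159th largest increase of 16736. The exact permutation test gave p = 0.0286, the smallest two-sided value that 70 assignments of 4 and 4 samples allow, and the same value for the other 5 members without overlap.

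Rgs16 encodes another R4 protein, which acts on Gi and Gq alpha subunits. It was scarce without the hormone, at 0.915, 0.643, 0.542 and 1.15 CPM in vehicle samples (26 to 57 counts), and stood at 8.86, 9.72, 8.09 and 7.75 CPM in PTH samples (310 to 454 counts). The lowest PTH sample was well above the highest vehicle sample. The log2 fold change was 3.40 ± 0.221 (SE, 95% interval 2.91 to 3.88, edgeR adjusted p = 1.33e-07), a 10.5-fold increase and the 192nd largest of all genes tested.

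Rgs3, an R4 gene that also makes longer proteins with added domains, moved in the opposite direction. Its level was 81.0, 80.0, 71.4 and 76.5 CPM in vehicle samples and 18.5, 16.5, 16.6 and 15.8 CPM in PTH samples. The vehicle samples were all above the PTH samples and close to each other in both groups. On the log2 scale the change was −2.20 ± 0.0743 (SE, 95% interval −2.36 to −2.03, edgeR adjusted p = 3.44e-10), a 4.58-fold decrease and the 58th largest of 16736. The annotation lists 17 transcripts for Rgs3, and the counts are for the gene as a whole, so a change in one form cannot be told apart from a change in all.

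Rgs2 over Rgs3, both in CPM per kilobase of exon, was 0.860, 0.811, 0.827 and 0.692 in the vehicle samples and 52.4, 43.7, 47.0 and 55.2 in the PTH samples. Rgs3 lay above Rgs2 in every vehicle library and below it in every PTH library. The ratio depends on the length used: with the longest transcript of each gene it was 0.362 to 0.449 in vehicle and 22.8 to 28.8 in PTH samples, and the order by treatment was the same.

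The sequences before the starts of Rgs2, Rgs16, Rgs3 and Rgs4 are shown because these R4 genes moved in different directions. They are from RefSeq on GRCm38.p6, run 5′ to 3′ on the gene's strand up to the start, and stop short of any base that falls in an exon of GENCODE M21. Capitals mark TGACG or its reverse complement CGTCA, the half-site of the cAMP response element. Of the 2 RefSeq windows of Rgs3 the first is shown, and the counts cannot tell which start was used. Rgs2 is at chr1:144004162-144004399 (minus strand), Rgs16 at chr1:153740103-153740348 (plus strand), Rgs3 at chr4:62559597-62559846 (plus strand) and Rgs4 at chr1:169747643-169747892 (minus strand).
Rgs2: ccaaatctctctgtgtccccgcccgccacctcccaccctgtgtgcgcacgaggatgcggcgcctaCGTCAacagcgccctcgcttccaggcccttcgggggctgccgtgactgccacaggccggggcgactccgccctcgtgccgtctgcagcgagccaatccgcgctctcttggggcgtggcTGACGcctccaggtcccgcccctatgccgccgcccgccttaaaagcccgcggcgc
Rgs16: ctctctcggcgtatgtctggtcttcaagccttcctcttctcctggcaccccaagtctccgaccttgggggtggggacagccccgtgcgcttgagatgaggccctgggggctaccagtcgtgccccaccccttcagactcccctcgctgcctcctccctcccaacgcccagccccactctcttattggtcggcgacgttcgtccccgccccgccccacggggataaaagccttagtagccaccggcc
Rgs3: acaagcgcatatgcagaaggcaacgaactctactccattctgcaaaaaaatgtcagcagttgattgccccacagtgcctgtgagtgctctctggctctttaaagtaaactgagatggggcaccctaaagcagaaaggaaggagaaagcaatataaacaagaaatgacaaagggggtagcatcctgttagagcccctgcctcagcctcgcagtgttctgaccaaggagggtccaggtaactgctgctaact
Rgs4: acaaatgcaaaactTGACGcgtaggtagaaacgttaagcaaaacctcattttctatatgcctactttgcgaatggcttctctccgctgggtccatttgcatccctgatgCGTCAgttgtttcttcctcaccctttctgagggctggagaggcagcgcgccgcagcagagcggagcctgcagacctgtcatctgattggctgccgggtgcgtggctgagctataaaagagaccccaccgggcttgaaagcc

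The search covered the 250 bases before each RefSeq start on both strands, in 13 windows of 9 members (Rgs1 has no window here). Rgs2 held 2 matches, whose nearest bases lay 181 and 63 bases before the start. Rgs4 held 2, at 232 and 137 bases, and the second of 2 Rgs12 windows held 1, at 78 bases. The other members' windows held none, Rgs16 and Rgs3 among them, and no window of a member held the full element TGACGTCA. Of 32851 windows of this length over all genes, 17.8% held the half-site, 3.90% held it at least 2 times and 1.55% held the full element. Matches were found before Rgs2, which rose, and before Rgs4 and Rgs12, which fell. A match describes letters and not a binding site, and the absence of a match says nothing of a factor.

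Rgs4, an R4 gene best known in brain, was measured at 14.3, 13.7, 12.6 and 12.3 CPM in vehicle samples and at 12.4, 9.33, 8.25 and 10.2 CPM in PTH samples. PTH sample 1 lay within the vehicle range, so the groups overlapped. The log2 fold change was −0.39 ± 0.125 (SE, 95% interval −0.67 to −0.12, edgeR adjusted p = 0.0214), and the exact permutation test gave p = 0.0571. The call was lost when vehicle sample 1 or 2 or PTH sample 2 or 3 was left out (edgeR adjusted p = 0.0597, 0.0538, 0.0565 and 0.0634).

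Rgs5, an R4 gene used as a marker of pericytes, lay between 5.69 and 6.89 CPM in vehicle samples and between 6.09 and 7.16 CPM in PTH samples. The groups overlapped. Its log2 fold change was 0.06 ± 0.122 (SE, 95% interval −0.21 to 0.33, edgeR adjusted p = 0.717). Of 8 mural cell markers, 7 were tested, with Mcam called higher and Notch3 called lower, and their sum was 120 to 131 CPM in vehicle and 124 to 131 CPM in PTH samples. Of 8 endothelial markers, 5 were tested, with Kdr called higher and Tek called lower, and Emcn was at 0 in every sample. The call of Tek was lost without vehicle sample 3 (edgeR adjusted p = 0.0664) or PTH sample 3 (0.0581).

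Rgs1, an R4 gene of lymphocytes and other immune cells, was near the limit of detection. Its counts were 6, 2, 9 and 31 in vehicle samples and 31, 25, 12 and 10 in PTH samples, and the ranges overlapped because of vehicle sample 4. On the log2 scale the change was 0.91 ± 0.667 (SE, 95% interval −0.54 to 2.37, edgeR adjusted p = 0.290). Without vehicle sample 4 it was 1.91 and was called higher (edgeR adjusted p = 0.0355). None of 8 lymphocyte markers passed the filter, and Cd3e and Cd3g were at 0 in every sample, at a depth that allows up to 3 counts. All 10 macrophage markers passed it, with a sum of 1002 to 1626 CPM in vehicle and 1573 to 2031 CPM in PTH samples. Their part in the Rgs1 counts was not tested.

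The RZ subfamily carries a cysteine-rich string near the N-terminus and includes regulators of Gi family subunits, Gz among them. Rgs19, its most abundant member here, was measured at 32.4, 33.3, 31.7 and 34.3 CPM in vehicle and at 26.1, 20.7, 23.2 and 22.5 CPM in PTH samples. All PTH samples lay below all vehicle samples. The log2 fold change was −0.51 ± 0.0802 (SE, 95% interval −0.68 to −0.33, edgeR adjusted p = 2.72e-04).

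Rgs17, of the same subfamily, lay between 10.3 and 12.4 CPM in vehicle and between 9.18 and 10.4 CPM in PTH samples. The ranges overlapped through PTH sample 3 alone, which stood apart from the other 3. On the log2 scale the change was −0.24 ± 0.0992 (SE, 95% interval −0.45 to −0.02, edgeR adjusted p = 0.0716), so its unadjusted interval did not reach 0 while the adjusted test was missed. Rgs20, the third RZ gene, did not pass the filter.

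The R12 subfamily joins 1 small protein, RGS10, with larger scaffolds, and its members act on Gi alpha subunits. Rgs12, which encodes one of the scaffolds, was measured at 41.1, 42.7, 44.4 and 43.8 CPM in vehicle and at 26.1, 23.3, 22.7 and 30.6 CPM in PTH samples. All PTH samples were lower. The log2 fold change was −0.74 ± 0.0931 (SE, 95% interval −0.95 to −0.54, edgeR adjusted p = 4.38e-05). The Rgs12 locus of the count table also carries the symbol of the microRNA Mir3097, which had at most 2 counts in any sample.

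Rgs10, which is abundant in macrophages and microglia, was the third member called higher. Its vehicle samples lay at 15.6, 15.5, 14.0 and 15.8 CPM and its PTH samples at 15.9, 21.6, 21.4 and 18.8 CPM. The groups did not overlap, but PTH sample 1 was nearly level with the highest vehicle sample. On the log2 scale the change was 0.35 ± 0.105 (SE, 95% interval 0.12 to 0.58, edgeR adjusted p = 0.0169), and the call was lost without vehicle sample 3 (adjusted p = 0.0548) or PTH sample 3 (0.0523). Of 10 macrophage markers, 3 were called higher (Tyrobp, Lyz2 and Cd14) and none lower. Their sum was 1002 to 1626 CPM in vehicle and 1573 to 2031 CPM in PTH samples, none of the 10 was at 0 in every sample, and their part in the Rgs10 result was not tested.

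**Figure D2:**
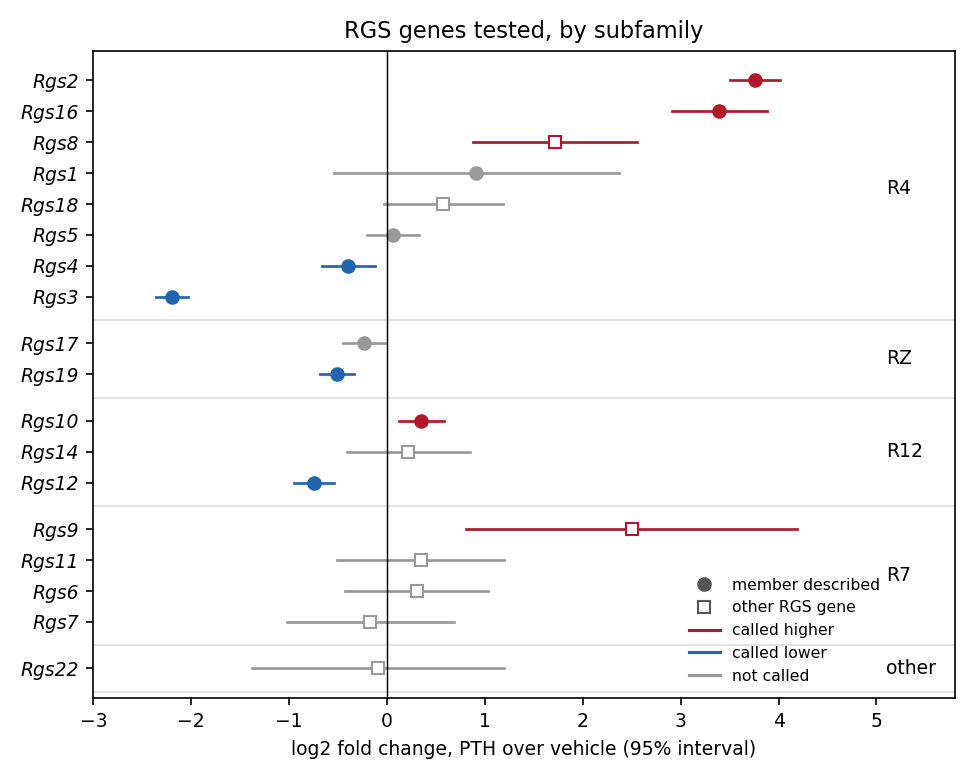
Log2 fold change (PTH over vehicle) with its 95% interval for the 18 RGS genes tested, by subfamily, with filled circles for the 10 members and open squares for the other 8. Rgs2 at 3.76 and Rgs16 at 3.40 lay at one end and Rgs3 at −2.20 at the other, all in the R4 group.

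Of the other 11 RGS genes, 8 passed the filter, 2 were called higher and none lower. Rgs8, an R4 gene of brain, had 6, 15, 19 and 17 counts in vehicle and 48, 35, 33 and 50 counts in PTH samples, with no overlap between groups. Its log2 fold change was 1.72 ± 0.384 (SE, edgeR adjusted p = 0.00306). Rgs9, an R7 gene of retina and striatum, had 6, 0, 6 and 0 counts in vehicle and 17, 15, 10 and 20 counts in PTH samples, a log2 fold change of 2.50 ± 0.775 (SE, edgeR adjusted p = 0.0195). Those counts are few, and the call was lost without vehicle sample 2 (adjusted p = 0.0511) or PTH sample 4 (0.0539). Of 8 neuron markers, 7 were tested, 3 were called higher (Nefl, Gap43 and Tubb3) and none lower. Their sum was 23.1 to 30.8 CPM in vehicle and 38.3 to 49.8 CPM in PTH samples, and their part in the results for Rgs8, Rgs9 and Rgs4 was not tested.

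Rgs18, an R4 gene of platelets and leukocytes, missed the test at a log2 fold change of 0.57 ± 0.279 (SE, edgeR adjusted p = 0.114), and was called higher without PTH sample 1 (0.73, adjusted p = 0.0460). Rgs6, Rgs7 and Rgs11 of the R7 subfamily, Rgs14 of the R12 subfamily and Rgs22 also missed it, with log2 fold changes between −0.17 and 0.35. Rgs13, Rgs20 and Rgs21 did not pass the filter. Within subfamilies, 3 of 8 tested R4 genes were called higher and 2 lower, 1 of 2 RZ genes lower, 1 of 3 R12 genes each way, and 1 of 4 R7 genes higher. These counts are small, and over all genes tested 23.3% were called higher and 22.5% lower.

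Levels of different genes were compared in CPM per kilobase of exon. In vehicle samples the order began with Rgs19 (14.8 ± 0.520, SD, n = 4), Rgs10 (8.89 ± 0.498), Rgs3 (7.15 ± 0.401), Rgs2 (5.71 ± 0.668), Rgs12 (5.07 ± 0.171) and Rgs4 (4.27 ± 0.305). The ranges of Rgs2 and Rgs12 overlapped, and those of the other neighbours among these 6 did not. Rgs5 (1.36 ± 0.132) and Rgs17 (1.35 ± 0.114) followed and could not be separated, and Rgs16 (0.347 ± 0.117) and Rgs1 (0.0357 ± 0.0371) came lower.

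In PTH samples Rgs2 led at 77.3 ± 9.96 CPM per kilobase, followed by Rgs10 (11.3 ± 1.57) and Rgs19 (10.4 ± 1.01), whose ranges overlapped. Rgs16 (3.68 ± 0.374), Rgs4 (3.24 ± 0.567) and Rgs12 (3.03 ± 0.425) came next, each overlapping its neighbour. Rgs3 (1.56 ± 0.105) and Rgs5 (1.42 ± 0.104) overlapped too, and Rgs17 (1.14 ± 0.0700) and Rgs1 (0.0687 ± 0.0349) came lower. Part of this order depended on the length. With the longest transcript, Rgs10 and Rgs3 overlapped in vehicle samples, and Rgs12 had a higher mean than Rgs2 with overlapping ranges. In PTH samples Rgs10 and Rgs19 were then apart, and Rgs12 had a higher mean than Rgs16, again with overlapping ranges. Rgs3 (3.59 ± 0.242) came between Rgs16 and Rgs4, overlapping both. Among all 18 genes, 7 of 17 neighbouring pairs had ranges apart in vehicle samples and 5 of 17 in PTH samples, or 7 and 6 with the longest transcript.

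**Figure D3:**
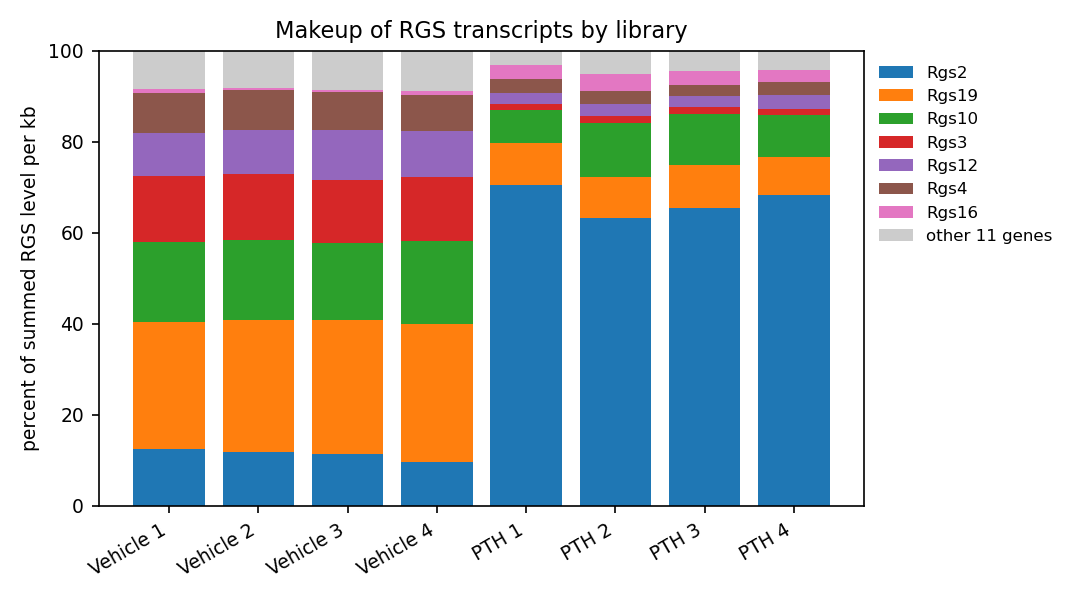
Percent of the summed RGS level (CPM per kilobase, 18 genes) taken by each gene, 1 bar per library. Rgs2 took 9.66% to 12.4% in the vehicle libraries and 63.3% to 70.5% in the PTH libraries.

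The summed level of the 18 RGS genes was 50.5 ± 1.66 CPM per kilobase in vehicle and 115 ± 9.47 in PTH samples (SD, n = 4), a ratio of 2.28. Without Rgs2 the sums were 44.8 ± 1.46 and 38.0 ± 0.521, a ratio of 0.849. With the longest transcript as the length these ratios were 1.89 and 0.798, and the mean share of Rgs2 went from 8.55% to 61.2%. Per kilobase of exon, the mean share of Rgs2 went from 11.3% to 66.9%. Mean shares went from 29.3% to 8.99% for Rgs19, from 17.6% to 9.97% for Rgs10, from 14.2% to 1.36% for Rgs3, from 10.1% to 2.62% for Rgs12 and from 8.45% to 2.80% for Rgs4. Rgs16 went from 0.685% to 3.21%. A share falls when another gene rises, and Rgs10, whose share fell, was called higher in level.

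Of the 10 members, 5 lie on chromosome 1, in 3 places (GRCm38, GENCODE M21). Rgs2 (chr1:143999338-144004161) starts a row of R4 genes that goes on with Rgs13, Rgs1, Rgs21 and Rgs18, all on the minus strand. Rgs2, Rgs1 and Rgs18 were tested there, and Rgs2 was called. The gap from Rgs2 to Rgs13 is 134 kb, and the nearest tested genes, Uchl5 on one side and Rgs1 on the other, were not called. Rgs16 (chr1:153740349-153745468) lies 40.0 kb from Rgs8, both on the plus strand and both called higher.

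**Figure D4:**
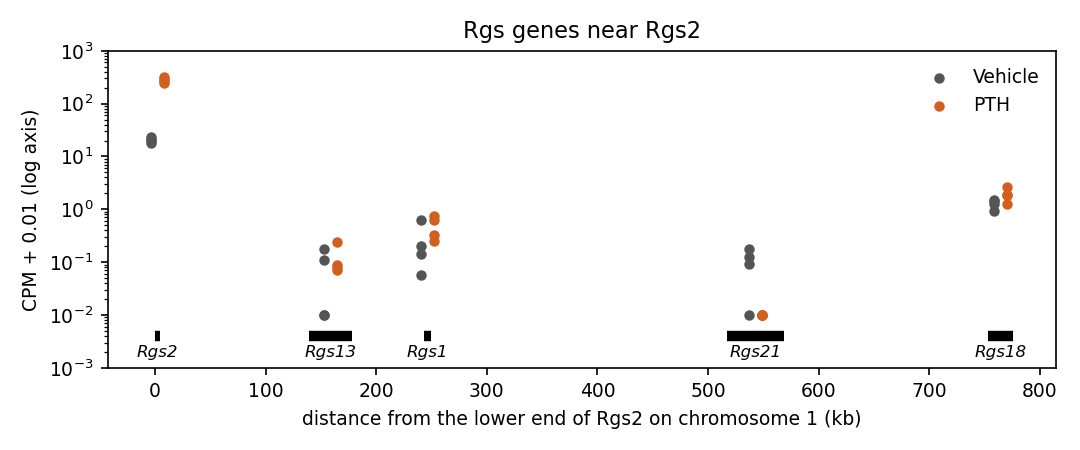
CPM + 0.01 (log axis) in each vehicle (gray) and PTH (orange) library for the 5 Rgs genes of the chromosome 1 row, by distance from Rgs2, with black bars for the gene bodies. Rgs2 is separated by treatment, and the other 4 lie below 3 CPM.

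Rgs5 (chr1:169655501-169695813, plus strand) and Rgs4 (chr1:169741477-169747642, minus strand) are 45.7 kb apart, and only Rgs4 was called. Rgs3 (chr4:62559847-62704001, plus strand) lies between Pole3, called higher (log2 fold change 0.30), and Zfp618, called lower (−1.19 ± 0.0890, SE). Rgs12 lies on chr5:34949445-35039644, Rgs10 on chr7:128373621-128418758, Rgs17 on chr10:5825663-5922400 and Rgs19 on chr2:181688419-181693977. Of the 20 nearest tested genes on either side of the members, 5 were called higher and 4 lower. They include members that lie next to each other, with Rgs2 among those called higher and Rgs4 among those called lower. Over all genes tested, 23.3% were called higher and 22.5% lower. Genes whose bodies overlap a member had at most 6 counts in any sample.

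Genes of G protein signaling were taken from 8 lists, 75 genes tested in all, of which 23 were called higher and 14 lower. Those are 30.7% and 18.7%, against 23.3% and 22.5% of all genes tested. The counts by list that follow are small and were not tested against these shares. Of 13 tested alpha subunits, 2 (15.4%) were called higher and 4 (30.8%) lower. These include the stimulatory and G12 families, although most RGS proteins act on the Gi or Gq families. In the Gi family, Gnao1 rose from 26.4 ± 3.09 to 46.8 ± 3.07 CPM (log2 fold change 0.83 ± 0.0909, SE, edgeR adjusted p = 1.46e-05). Gnaz, the alpha subunit of Gz, was measured at 3.35, 3.72, 4.42 and 2.10 CPM in vehicle and 0.839, 0.812, 0.731 and 1.28 CPM in PTH samples, a log2 fold change of −1.88 ± 0.282 (SE, edgeR adjusted p = 1.83e-04). Gnai1 fell from 85.6 ± 7.29 to 54.5 ± 5.34 CPM (−0.65 ± 0.0865, SE, edgeR adjusted p = 6.94e-05).

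In the Gq family 1 of 4 genes, Gna11, was called lower (log2 fold change −0.30 ± 0.0842, SE, edgeR adjusted p = 0.0127), and none higher. In the G12 family 1 of 2, Gna12, was called lower (−0.44 ± 0.0995, SE, edgeR adjusted p = 0.00312). Of the stimulatory pair, Gnal was called higher (0.61 ± 0.175, SE, edgeR adjusted p = 0.0133). Gnas, which encodes Gs and was singled out after its values were seen, lay between 1557 and 1688 CPM in vehicle and between 1566 and 1851 CPM in PTH samples (edgeR adjusted p = 0.567).

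Beta and gamma subunits, which are released from the alpha subunit when it is active, gave 5 genes higher and 1 lower of 13 tested. Gng4 had the largest change, from 0.736, 0.758, 1.59 and 1.15 CPM to between 10.02 and 19.4 CPM in PTH samples, a log2 fold change of 3.72 ± 0.268 (SE, edgeR adjusted p = 3.21e-07). Gng10 rose by 0.69 ± 0.152 on the log2 scale and Gnb4 fell by 0.35 ± 0.0672 (SE). Of 10 tested genes in the list of other modulators, Rgs14 among them, 2 were called higher and 3 lower.

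Rgs7bp, which anchors R7 proteins at the membrane, rose from 3.90 ± 0.607 to 10.4 ± 0.925 CPM (log2 fold change 1.41 ± 0.137, SE, edgeR adjusted p = 4.93e-06). Gpsm2, which holds Gi alpha subunits in their GDP-bound form, fell from 47.8 ± 1.87 to 17.1 ± 1.08 CPM (−1.48 ± 0.0715, SE, edgeR adjusted p = 9.13e-09). Gpsm1, a relative of Gpsm2, rose (0.52 ± 0.0716, SE), and Gprasp2, which sorts receptors after uptake, fell (−0.63 ± 0.129, SE).

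Phospholipase C beta isoforms and their partners carry the signal of Gq, and 2 of 11 were called higher and 3 lower. Plcb3 fell from 65.8 ± 2.01 to 40.8 ± 4.25 CPM (log2 fold change −0.69 ± 0.0768, SE, edgeR adjusted p = 1.62e-05) and Prkca fell by 0.30 ± 0.0668 on the log2 scale (SE). Prkce and Itpr3 were called higher by 0.36 and 0.23 on that scale, both with overlapping samples. Prkce lost its call without any 1 of 6 samples, PTH samples 2 and 3 being the exceptions, with adjusted p up to 0.111. Itpr3 also lost it without any 1 of 6 samples, PTH samples 1 and 4 being the exceptions, with adjusted p up to 0.146.

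The list of receptors taken to couple to Gi or Gq gave 12 genes higher and 3 lower of 28 tested. The 12 include Ackr3, an atypical chemokine receptor whose place in this list is in doubt. The shares over all genes were 23.3% and 22.5%, and the coupling of each receptor was not tested. Bdkrb1, a bradykinin receptor, stood at 0.736, 0.413, 0.334 and 0.383 CPM in vehicle and at 16.2, 9.45, 10.5 and 12.6 CPM in PTH samples (log2 fold change 4.71 ± 0.260, SE, edgeR adjusted p = 3.00e-08). Bdkrb2, the other bradykinin receptor, rose by 2.94 ± 0.389 on the log2 scale (SE, edgeR adjusted p = 6.80e-05). Lpar4, a lysophosphatidic acid receptor, fell from 37.7 ± 2.98 to 8.58 ± 1.02 CPM and Ednra, an endothelin receptor, fell from 103 ± 7.10 to 49.6 ± 8.06 CPM (log2 fold changes −2.13 ± 0.101 and −1.06 ± 0.106, SE).

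**Figure D5:**
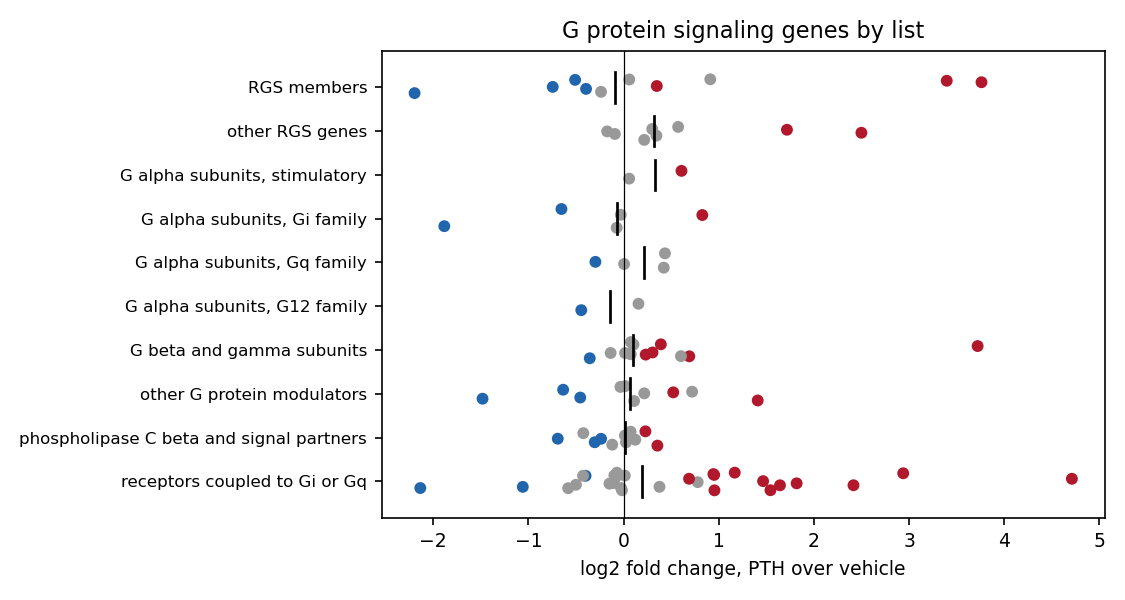
Log2 fold change (PTH over vehicle) of each tested gene in 10 lists of G protein signaling, with red for called higher, blue for called lower, gray for not called and a black line at the list's median. Every list but those of the G alpha subunits of the Gs, Gq and G12 families and the other RGS genes held calls in both directions.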

How the data were processed

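The authors prepared poly(A)-enriched libraries, read as pairs of 150 bases, aligned them to GRCm38 with HISAT2 and assembled transcripts with StringTie2. They deposited whole-number counts per gene and sample, made from transcript coverage by StringTie2's companion script and not normalized. That script assumes reads of 75 bases unless told otherwise. The setting, the annotation version and the strand setting were not given in the sources used here. If the default was kept with reads of 150 bases, the counts printed here are too high. Low counts then look more precise than they are. With halved counts, 3 members were called higher and 4 lower, the same numbers as in the main fit. Entries without a symbol held 0.00281% of the counts.

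Counts were normalized by TMM and tested in edgeR 4.0.16 (R 4.3.3; quasi-likelihood F-test, two-sided, no block) after edgeR's filterByExpr (count of at least 10, total of at least 15). Benjamini-Hochberg adjustment ran over all genes tested. Single genes were also compared by an exact two-sided permutation test on log2(CPM + 0.1). CPM use TMM library sizes, and lengths are the union of exons in GENCODE M21, to which 46518 of 47706 entries were matched. Promoter windows are RefSeq's. Python 3.11.15, pandas 2.3.3, NumPy 2.4.6, SciPy 1.17.1 and matplotlib 3.10.9 were used. The fits were tested on simulated data in which 100 genes changed by 1 and 100 by 2 on the log2 scale. edgeR found 70 and 90 of them with 10 false calls, and DESeq2 found 76 and 92 with 30. Far fewer genes changed there than were called here, so the simulation does not check normalization in these data. A count of 0 allows up to 3 counts, which covers counting error only.

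All 10 members were named, with every other tested RGS gene, the 2 largest called changes each way of every other list, Tnfsf11, Pth1r and the nearest tested gene on each side of a member. 1 of these nearest genes is not reported here. The members and lists were chosen with earlier results of these data known. Same-numbered samples deviated from their group means with correlations between −0.0409 and 0.0274, so numbers were not taken to pair samples. Alternatives were DESeq2 1.42.0, its size factors in edgeR, no filter, each sample dropped in turn, a block for replicate number, halved counts, counts added up per symbol, an absolute log2 fold change of at least 1, a pseudocount of 1 CPM and the longest transcript. Their use on the signaling lists, on other named genes and on sums, shares and ratios per kilobase was added after the data were seen. The comparison used all 8 samples.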

Additional observations from a re-analysis of the deposited data

Results flagged for a closer look

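In 132 groups of 4 values, 3 held a sample far from the other 3 by Dixon's test at 95%, a rate of flags below the 1 in 20 that chance gives. Rgs17 was 10.4 CPM in PTH sample 3 and 9.18 to 9.23 CPM in the other PTH samples, and that sample alone made the treatments overlap. Tnfsf11 was 157 CPM in PTH sample 1 and 115 to 120 CPM in the others. Gna12 was 95.7 CPM in vehicle sample 1 and 103 to 104 CPM in the others.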

How the results depend on the processing

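Of 139 log2 fold changes of the members under the alternatives that refit the table, 132 kept their direction and their side of the threshold, 6 lost the call, 1 gained it and 0 changed sign. Rgs2, Rgs3, Rgs5, Rgs12, Rgs16, Rgs17 and Rgs19 kept both in every such fit, with Rgs2 between 3.68 and 3.84, Rgs16 between 3.24 and 3.61 and Rgs3 between −2.25 and −2.17. The 7 changes were those of Rgs4, Rgs10 and Rgs1 without single samples, and left 2 to 4 members called higher and 3 to 4 lower, and the cause was not tested. The block on the sample number gave 3571 for the genes called higher and 3432 for the genes called lower, with 3 and 4 members called, the same counts as without it, and 35 signaling genes in place of 37. With a minimum log2 fold change of 1, by construction fewer genes were called, at 1232 higher and 650 lower, with 1 member lower, 2 higher and 14 signaling genes, and Rgs12, Rgs19, Rgs4 and Rgs10 were no longer called. Leaving out single samples turned the direction of 5 uncalled genes. Each Rgs7 log2 fold change then lay between −0.34 and 0.069, each Rgs11 log2 fold change between −0.17 and 0.60, each Rgs22 log2 fold change between −0.44 and 0.29, each Lrpap1 log2 fold change between −0.12 and 0.046, and each Tcea2 log2 fold change between −0.23 and 0.043, and the cause was not tested. Rgs9 also lost its call with no low-count filter (adjusted p = 0.0694), Prkce and Itpr3 with no filter and under the block, Itpr3 under DESeq2 and Tek under the block. Depth limits Rgs1, Rgs8, Rgs9 and the 3 RGS genes below the filter, and fold changes at a few counts were not precise.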
